A study of Mus musculus with 6 samples.

Results

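The surface of the embryonic face and mouth is covered by epithelium, and 40 genes that mark such epithelium were followed in RNA-seq of the maxillary prominence at E12.5. They were chosen by name, for their known use in surface epithelium and with earlier results of these data known. Each was matched by symbol in the mm10 GENCODE annotation. All 40 were among the 53801 genes of the count files, and 38 of them were among the 17514 genes that passed the filter on low counts. The groups were 3 WT samples and 3 samples of wnt1cre; Rosa26Dlx2/- embryos (Dlx2OE), with the strain of all samples labelled C57BL/6. In Dlx2OE embryos a transgene for Flag-tagged Dlx2 under the CAG promoter, held at Rosa26 behind a loxP-flanked stop, was switched on by Cre expressed from Wnt1. Wnt1-Cre marks the neural crest lineage, which gives the mesenchyme of the face, and not the surface epithelium, and which cells of the tissue expressed the 40 genes was not measured. WT embryos were labelled wild type, and a Cre-only control was not analysed here. The prominences were dissected whole, so each sample mixed epithelium with mesenchyme, vessels, nerve and blood. The labels give 7 littermates and the study's methods 6 as the source of the RNA, and a sample may therefore hold more than 1 embryo.

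A surface epithelium is held together by cadherin junctions, tight junctions and desmosomes, and its cells are filled with keratins, which polymerise in pairs of a type I and a type II chain. Simple epithelia and the embryonic periderm are known for Krt8 with Krt18, whereas the basal layer of a stratifying epithelium is known for Krt5 with Krt14. Trp63 is the master regulator of the basal layer, and the grainyhead factors (Grhl1 to Grhl3), Ovol factors, the ETS factors Elf3 and Ehf, and the splicing factors Esrp1 and Esrp2 maintain the epithelial state. Zeb, Snai and Twist proteins of the mesenchyme are known as repressors of epithelial genes, and Zeb and Snai proteins bind E-boxes of the form CACCTG.

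RefSeq promoter windows of GRCm38.p6, each from 250 bases before to 50 bases after a start site, were found for 22 of the 40 genes, in 26 windows. CACCTG, or CAGGTG on the other strand, was present in 18 of the 26 windows (69.2%) and in 17 of the 22 genes, against 20.2% of all 32851 windows. The sequences below belong to genes on which the comparison turned, and capitals mark this E-box. For Krt18, Wfdc2, Krt5 and Epcam the stretch shown lies before the RefSeq start and outside GENCODE exons. For Cldn7 the first match lies in an annotated exon, and 30 bases around it are shown.
Krt18 (chr15:102027966-102028179, plus strand): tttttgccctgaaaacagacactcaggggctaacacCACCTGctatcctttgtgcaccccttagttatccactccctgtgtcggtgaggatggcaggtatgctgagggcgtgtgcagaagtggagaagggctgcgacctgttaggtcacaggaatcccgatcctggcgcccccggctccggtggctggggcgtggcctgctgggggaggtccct
Wfdc2 (chr2:164562475-164562578, plus strand): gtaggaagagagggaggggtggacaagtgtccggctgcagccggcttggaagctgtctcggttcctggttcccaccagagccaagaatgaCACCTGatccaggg
Cldn7 (chr11:69965312-69965341, plus strand): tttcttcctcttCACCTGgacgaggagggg
Krt5 (chr15:101712906-101713155, minus strand): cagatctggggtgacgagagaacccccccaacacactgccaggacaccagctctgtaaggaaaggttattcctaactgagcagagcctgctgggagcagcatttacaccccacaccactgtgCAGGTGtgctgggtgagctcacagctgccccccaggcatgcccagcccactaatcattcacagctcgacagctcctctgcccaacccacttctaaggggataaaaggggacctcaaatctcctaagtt
Epcam (chr17:87635729-87635978, plus strand): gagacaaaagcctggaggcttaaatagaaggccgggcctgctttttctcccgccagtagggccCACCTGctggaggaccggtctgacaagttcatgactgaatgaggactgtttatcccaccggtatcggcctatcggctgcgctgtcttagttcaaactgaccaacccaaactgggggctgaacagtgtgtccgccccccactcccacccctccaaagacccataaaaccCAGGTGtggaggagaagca
The 5 stretches were chosen to show the E-box, and the window of Krt14 and the other window of Cldn7 held no match. The Krt14 window (chr11:100205981-100206280, minus strand) lies inside the gene, which spans 100203162 to 100207548. Bases before the outer start of Krt14 were therefore not searched. Of the other motifs searched on both strands, GGGCGG was present in 50% of the member windows (35.7% of all windows), GCCNNNGGC in 34.6% (16.6%) and TATAAA in 3.85% (13.6%). AACCGGTT, a grainyhead sequence, and TAATTA, a homeodomain core, had no match in the 26 windows, and 0.146% and 5.29% of all windows held them. GGGCGG and GCCNNNGGC can share bases. A match is a run of letters only, and binding was not measured.

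The libraries held 30332754 to 31308813 counts on genes in WT and 26155500 to 30570784 in Dlx2OE. For Dlx2, 1255, 1056 and 1409 counts were recorded in WT against 3521, 4102 and 3336 for Dlx2OE (log2 fold change 1.60, SE 0.12, edgeR adjusted p = 0.00241). Levels are given below as CPM, counts scaled to the library size with TMM factors, and a call means an adjusted p under 0.05 over the 17514 genes in edgeR's quasi-likelihood test. In all, 524 genes were called higher in Dlx2OE and 606 lower. Read pairs on no annotated gene made up 5.03% to 5.43% of pairs in WT and 5.75%, 7.81% and 14.7% in Dlx2OE samples 1 to 3, and the part of this in the results was not tested.

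The 3 Dlx2OE samples differed widely among themselves in these genes. Dlx2OE sample 1 was the highest Dlx2OE sample for 38 of 38 tested genes, and the highest of all 6 samples for 13. Among the WT samples, sample 2 was highest for 37 and sample 1 lowest for 35. Summed over the 40 genes, the level was 1544, 2770 and 2140 CPM in WT samples 1 to 3 and 3255, 1073 and 1154 CPM in Dlx2OE samples 1 to 3. The summed level thus overlapped between the groups, with Dlx2OE sample 1 above and the other two Dlx2OE samples below every WT sample. Without Dsp, Krt14 and Krt5, the members of highest mean CPM, the sums were 1180, 2136 and 1572 CPM in WT and 1799, 705 and 716 CPM in Dlx2OE. In such bulk samples a smaller share of epithelial cells and less RNA of these genes per cell cannot be told apart.

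**Figure D1:**
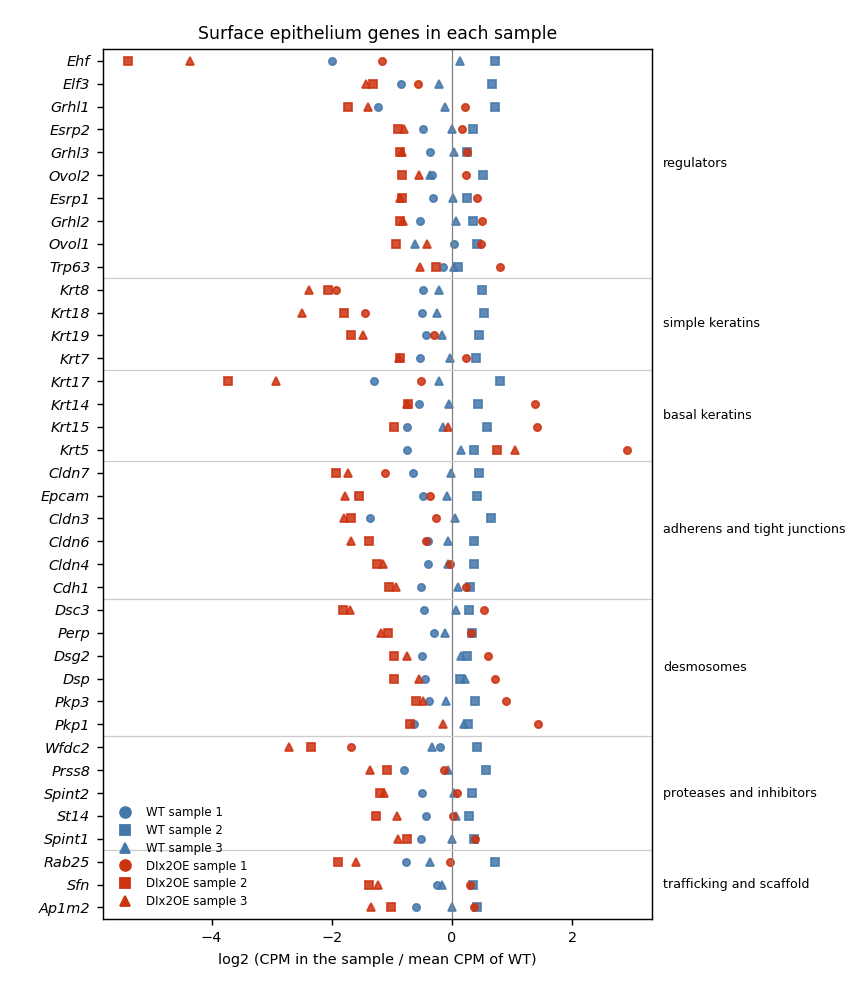
Level of each of the 38 tested surface epithelium genes in each sample, as log2 of its CPM over the WT mean, with genes grouped by role and 1 point per sample (blue, WT; red, Dlx2OE; shape, sample number). Dlx2OE sample 1 (red circle) lies to the right of the other two Dlx2OE samples for all 38 genes, and Krt8, Krt18 and Wfdc2 are among the few genes for which all 3 red points lie left of all blue ones.

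Relative to WT, 4 of the 38 tested genes were called lower in Dlx2OE (10.5%, against 3.46% of all genes tested), namely Krt8, Wfdc2, Krt18 and Cldn7. Each of these had a log2 fold change beyond 1 in size (1.62% of all genes were called lower by that rule, and 1.5% higher). The count called higher was 0 (2.99% of all genes). At an unadjusted p under 0.05, 9 were lower (15.4% of all genes) and 1, Krt5, was higher (14.1%). DESeq2 called 5 lower (7.54% of all genes), the added gene being Krt19, and 0 higher (5.81%). The median log2 fold change of the 38 genes was -0.51, against 0.0028 over all genes tested, and 32 of 38 (84.2%, against 49.7% of all genes) had a value below 0. The levels of the groups did not overlap for 5 lower genes (13.2%, against 17.3% of all genes) and 1 higher gene (2.63%, against 16.7%), shares below those of all genes.

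**Figure D2:**
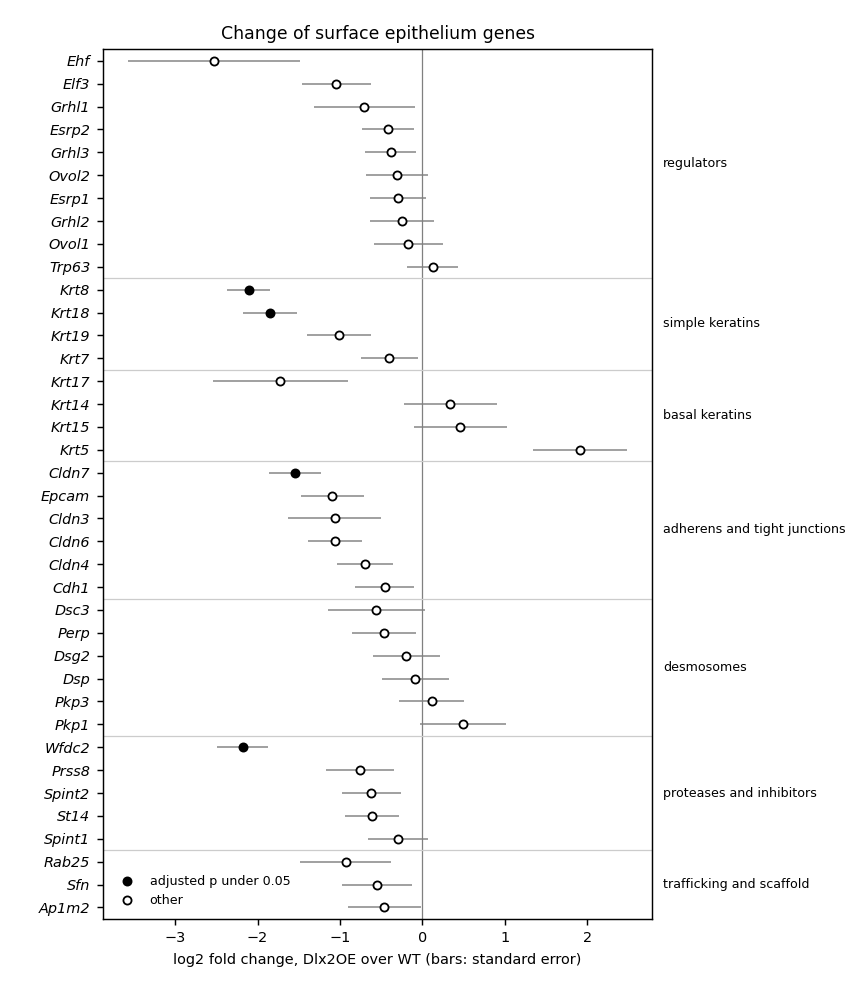
Log2 fold change of each of the 38 tested genes in Dlx2OE over WT (edgeR, n = 3 per genotype), with bars of 1 standard error and filled points for an adjusted p under 0.05. The 4 filled points are Krt8, Wfdc2, Krt18 and Cldn7, all below -1, and Krt5 is the open point farthest to the right.

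The simple keratins were the group of lowest median, -1.43 on the log2 scale, with 4 of 4 values below 0 and 2 called. Krt8, the type II chain of simple epithelia, lies on chromosome 15 (mm10, 101996698 to 102004482, minus strand). Its level was 71.4, 142 and 85.9 CPM in WT and 26.3, 23.7 and 19.2 CPM in Dlx2OE. Every Dlx2OE sample was thus far below the lowest WT sample, sample 1 included. Krt8 was 4.32-fold higher in WT, a log2 fold change of -2.11 (SE 0.26, 95% interval -2.70 to -1.52, edgeR adjusted p = 0.00939). Krt18, its type I partner, lies 23697 bp from Krt8 with no protein-coding gene between them, on the opposite strand (102028180 to 102032027). Krt18 had 52.8, 108 and 63.2 CPM in WT and 27.4, 21.6 and 13.3 CPM in Dlx2OE, again without overlap, and a log2 fold change of -1.85 (SE 0.33, edgeR adjusted p = 0.0233). Per kilobase of exon, Krt8 and Krt18 stood at nearly the same level in WT, 50.9 ± 18.9 and 52.0 ± 20.5 CPM per kb (SD, n = 3), and at 11.8 ± 1.84 and 14.5 ± 4.91 CPM per kb in Dlx2OE. A lincRNA model, Gm36026, covers 5.16% of the exon bases of Krt8 on the other strand, and reads there could not be assigned by strand. Krt19, a type I keratin of simple epithelia and of periderm, had a log2 fold change of -1.01 (SE 0.39) with overlapping groups (edgeR adjusted p = 0.133). Krt7 had -0.40 (SE 0.35), and its groups overlapped too.

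The basal keratins, with Krt17 grouped among them, were mixed, with a median of 0.40 on the log2 scale, 1 of 4 values below 0 (Krt17) and 0 called. Krt5, the type II chain of basal cells (chromosome 15, 101707070 to 101712898, minus strand), had 42.7, 91.7 and 79.5 CPM in WT and 538, 121 and 147 CPM in Dlx2OE. All 3 Dlx2OE samples exceeded all 3 WT samples, with sample 1 far above the other two. The log2 fold change was 1.91 (SE 0.57, 95% interval 0.59 to 3.23), which missed the threshold (edgeR adjusted p = 0.0792). Without Dlx2OE sample 1 it was 0.90 (SE 0.28, edgeR adjusted p = 0.072), and leaving out any single sample gave 0.90 to 2.26 with adjusted p of 0.072 to 0.202. A miRNA model on the other strand, Gm44323, covers 5.87% of the exon bases of Krt5. Krt14, its type I partner, had 129, 254 and 182 CPM in WT and 490, 113 and 112 CPM in Dlx2OE. Here Dlx2OE sample 1 was the highest of all samples and the other two were the lowest, so the log2 fold change of 0.34 (SE 0.56, edgeR adjusted p = 0.712) covers values on either side of WT. Without sample 1 the Krt14 value was -0.75 (SE 0.25, edgeR adjusted p = 0.0892). Krt15, another basal type I keratin, had a log2 fold change of 0.46 (SE 0.57), and -0.46 (SE 0.38) without Dlx2OE sample 1. Krt17, an early ectodermal and stress-inducible type I keratin singled out here after its values were seen, had 22.7, 96.3 and 47.8 CPM in WT and 38.9, 4.20 and 7.31 CPM in Dlx2OE (log2 fold change -1.72, SE 0.82, edgeR adjusted p = 0.201). Krt4 and Krt13, the pair of suprabasal oral epithelium, failed the filter. The WT samples held 0, 3 and 5 counts of Krt4 against 0, 2 and 0 for Dlx2OE. For Krt13 the counts were 2, 3 and 2 against 2, 0 and 2. These are at or near the floor of 3 counts (0.0955 to 0.111 CPM), and no difference was detectable at this depth.

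**Figure D3:**
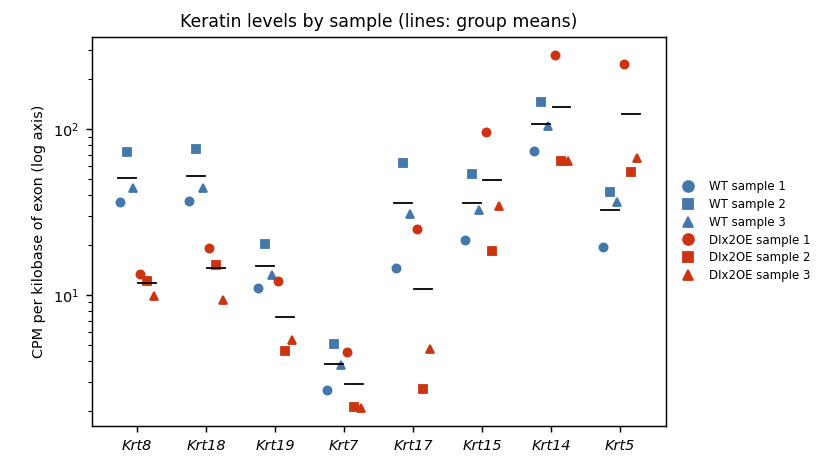
Level of the 8 tested keratins in each sample, in CPM per kilobase of exon on a log axis, with 1 point per sample and a line at each group mean. Krt8 and Krt18 are lower in all 3 Dlx2OE samples, Krt5 is higher in all 3, and the other 5 keratins overlap between the groups.

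The ratio of basal to simple keratin was read within each sample, where the amount of epithelium in the dissected tissue enters both terms. These ratios were chosen after the values were seen and are given as a description. Krt5 over Krt8, per kilobase, was 0.532, 0.578 and 0.824 in WT and 18.2, 4.53 and 6.85 in Dlx2OE. Krt14 over Krt18 was 2.00, 1.92 and 2.36 in WT and 14.6, 4.29 and 6.88 in Dlx2OE. Both ratios were thus higher in each Dlx2OE sample than in any WT sample, also in the samples where Krt14 itself was low. For Krt5 over Krt8 this follows from the levels of the genes, each of which already separated the groups. For Krt14 over Krt18 in Dlx2OE samples 2 and 3 it follows from Krt18, since Krt14 there lay below every WT sample. The pairs behaved differently from each other: Krt8 over Krt18 was 0.993, 0.959 and 0.998 in WT and 0.704, 0.805 and 1.06 in Dlx2OE, with overlap. Krt5 over Krt14, the basal pair, went from 0.264, 0.289 and 0.349 in WT to 0.879, 0.851 and 1.05 in Dlx2OE. Krt8 with Krt18 made up 33.9%, 31.1% and 28.5% of the summed keratin level per kilobase in WT and 4.69%, 15.6% and 9.72% in Dlx2OE. Krt5, Krt14 and Krt15 made up 53.0%, 50.5% and 55.9% in WT and 89.3%, 79.0% and 84.1% in Dlx2OE. This share leaves out Krt17, which was grouped here with the basal keratins and went the other way (log2 fold change -1.72), and would shift less with it. Both shares draw on the same levels of Krt5, Krt8, Krt14 and Krt18 as the ratios and are no separate evidence. In WT Krt5 ranked 10 among the 38 genes by level per kilobase (32.4 ± 11.6 CPM per kb, SD, n = 3), and in Dlx2OE it ranked 2 (122 ± 106 CPM per kb), behind Krt14 in both groups. The SD of Krt5 in Dlx2OE is nearly as large as its mean, since sample 1 sets it.

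**Figure D4:**
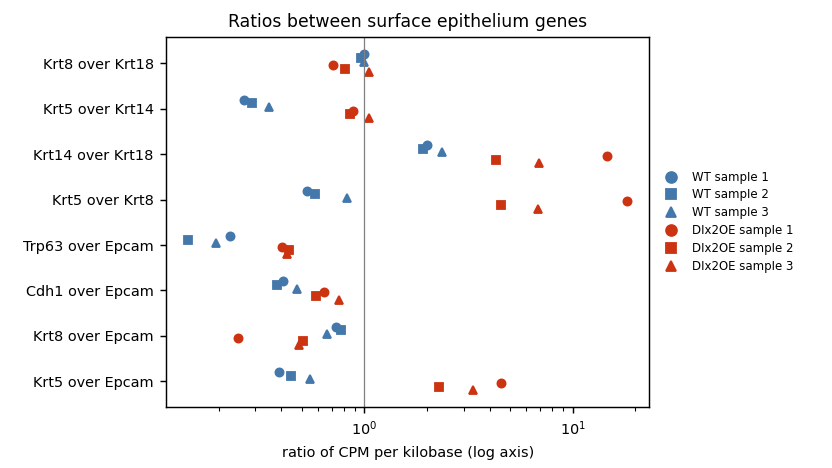
Ratios between pairs of surface epithelium genes in each sample, computed from CPM per kilobase and drawn on a log axis, with 1 point per sample. Krt5 over Krt8 lies at 0.532 to 0.824 in WT and 4.53 to 18.2 in Dlx2OE, and of the 8 ratios drawn Krt8 over Krt18 is the one that overlaps between groups.

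The junction genes had values below 0 for 6 of 6 adherens and tight junction members (median log2 fold change -1.06), of which 1 was called. Cldn7, a claudin of the lateral membrane (chromosome 11, 69964779 to 69967885), had 13.7, 29.5 and 21.4 CPM in WT and 9.96, 5.67 and 6.54 CPM in Dlx2OE. Its groups did not overlap, although WT sample 1 and Dlx2OE sample 1 lay closest to each other, and its log2 fold change was -1.54 (SE 0.32, edgeR adjusted p = 0.034). Cldn6, an embryonic claudin, had 60.7, 103 and 76.4 CPM in WT and 59.2, 30.6 and 25 CPM in Dlx2OE. The groups were separated only by the narrow gap between the sample 1 of each genotype, and the log2 fold change of -1.06 (SE 0.33) was not called (edgeR adjusted p = 0.0831). Epcam, the epithelial cell adhesion molecule and after Krt14 the highest of the genes per kilobase in WT, had 109, 205 and 145 CPM in WT and 118, 52.6 and 44.4 CPM in Dlx2OE. Dlx2OE sample 1 lay within the WT range, and the other two lay below it (log2 fold change -1.09, SE 0.38, edgeR adjusted p = 0.11). Cdh1, or E-cadherin, the adhesive core of the adherens junction, had 93.3, 164 and 144 CPM in WT and 158, 64.5 and 69.7 CPM in Dlx2OE. Dlx2OE sample 1 again lay within the WT range and the other two below it, and the log2 fold change of -0.46 (SE 0.36) was not called (edgeR adjusted p = 0.412). Cldn3 and Cldn4, a pair of neighbouring claudin genes on chromosome 5 that lie 39279 bp apart, had -1.07 (SE 0.56) and -0.69 (SE 0.34), both with overlap.

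Desmosome genes had the median closest to 0 of the groups, -0.14 on the log2 scale, with 4 of 6 values below 0 and 0 called. Dsp, the plaque protein that ties keratin to the desmosome and the member of highest mean CPM, had a log2 fold change of -0.09 (SE 0.40). The plakophilins Pkp1 and Pkp3 had 0.49 (SE 0.52) and 0.11 (SE 0.40), while the cadherins Dsg2 and Dsc3 had -0.19 (SE 0.40) and -0.56 (SE 0.59). Perp, a membrane protein of desmosomes and a target of Trp63, had -0.47 (SE 0.39). The edgeR adjusted p of these 6 genes was at least 0.439.

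Among the regulators, 9 of 10 values were below 0 (median log2 fold change -0.35), and 0 were called. Trp63 had 94.9, 112 and 107 CPM in WT and 183, 87.3 and 72.4 CPM in Dlx2OE. WT samples lay close together, with Dlx2OE sample 1 above them and the other two below, and the log2 fold change was 0.13 (SE 0.31, edgeR adjusted p = 0.806). Grhl2, which maintains Cdh1 and claudin expression, had 25, 46.2 and 38 CPM in WT and 51.3, 19.9 and 20.7 CPM in Dlx2OE (log2 fold change -0.25, SE 0.38, edgeR adjusted p = 0.689). As for Trp63, Dlx2OE sample 1 lay above every WT sample and the other two below. The splicing factors Esrp1 and Esrp2 had -0.29 (SE 0.34) and -0.42 (SE 0.32). The ETS factors stood lowest in the group, Elf3 at -1.05 (SE 0.42, edgeR adjusted p = 0.144) and Ehf at -2.53 (SE 1.04, edgeR adjusted p = 0.153). Ehf, named after its values were seen, had 4.37, 28.7 and 19.1 CPM in WT and 7.73, 0.414 and 0.849 CPM in Dlx2OE, so the groups overlapped and the values within each genotype spread widely. Grhl1, Grhl3, Ovol1 and Ovol2 had values from -0.70 to -0.17, and 22.0% and 17.0% of the exon bases of Ovol1 and Ovol2 overlap other gene models.

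The serine protease system of the epithelial surface had 5 of 5 values below 0 (median log2 fold change -0.62), with 1 called. Wfdc2, which encodes a secreted protein with WAP-type inhibitor domains (chromosome 2, 164562413 to 164568510), had 21.4, 32.7 and 19.4 CPM in WT and 7.66, 4.81 and 3.73 CPM in Dlx2OE. No Dlx2OE sample came near the WT range. The gene was 4.53-fold higher in WT, with a log2 fold change of -2.18 (SE 0.31, 95% interval -2.89 to -1.47, edgeR adjusted p = 0.0128). The membrane proteases St14 (matriptase) and Prss8 (prostasin) had -0.62 (SE 0.33) and -0.76 (SE 0.41), and their Kunitz inhibitors Spint1 and Spint2 had -0.30 (SE 0.36) and -0.62 (SE 0.36). None of these 4 was called. Rab25, a recycling GTPase, Ap1m2, the epithelial subunit of the AP-1 sorting adaptor, and Sfn, the 14-3-3 sigma scaffold, had -0.93 (SE 0.55), -0.46 (SE 0.44) and -0.55 (SE 0.43), again without a call.

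The count of calls depended on Dlx2OE sample 1 more than on any other library. Without it, 21 of the 38 genes were called lower (55.3%, against 5.33% of all genes tested in that fit), 0 were called higher (5.36%), 37 of 38 values were below 0 and the median was -1.15. Dlx2OE sample 1 was the highest Dlx2OE sample for each of the 38 genes, so leaving it out lowers the Dlx2OE mean of all of them. The added calls are therefore no separate evidence of a lower level. The 21 included the 4 above and, among others, Epcam (log2 fold change -1.67, edgeR adjusted p = 0.0115), Cdh1 (-1.0, 0.0322), Dsc3 (-1.77, 0.00753) and Sfn (-1.31, 0.011). Without Dlx2OE sample 2, Krt8 was the only member called lower (0.4% of all genes), and so it was without WT sample 2 (0.222%). Without Dlx2OE sample 3, Krt8 and Wfdc2 were called lower (0.793%). These 3 fits called 0 members higher (0.784%, 0.216% and 0.966% of all genes). Krt8 kept an adjusted p under 0.05 in 6 of 6 such fits (edgeR adjusted p 0.00753 to 0.0354), Wfdc2 in 4, and Krt18 and Cldn7 in 3 each.

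Since the levels of these genes varied together from sample to sample, each sample was also scaled to 50 other epithelial genes. The median log2 fold change of all genes went from 0.0028 to 0.42 with it. This scaling was added after the data were seen. Relative to those genes, Krt5 was higher in Dlx2OE (log2 fold change 2.10, SE 0.52, edgeR adjusted p = 0.00365; 2.96% of all genes were called higher). Krt8 (-1.64, SE 0.50, edgeR adjusted p = 0.0339) and Wfdc2 (-1.84, SE 0.51, edgeR adjusted p = 0.0145) were lower, with Ehf (-2.46, edgeR adjusted p = 0.000637) and Krt17 (-1.59, edgeR adjusted p = 0.041), and 0.423% of all genes were called lower. Krt18 (-1.42, edgeR adjusted p = 0.0951) and Cldn7 (-1.13, edgeR adjusted p = 0.32) were not called on this scale. The SE changed in this fit too, from 1.04 to 0.55 for Ehf, 0.82 to 0.49 for Krt17 and 0.57 to 0.52 for Krt5. For Krt8 it went up, from 0.26 to 0.50. Calls on this scale thus rest on another estimate of spread as well as on the scaling, and the part of each was not tested. Values were below 0 for 26 of 38 genes, with a median of -0.27. Scaled to the 38 tested genes themselves, Krt5 was the only member called higher (3.13% of all genes) and Ehf the only one lower (0.171%). The SE of Ehf was 0.64 there, again below that under TMM scaling. With no filter on low counts, which enlarges the set of genes that share the estimate of spread, 8 members were called lower (3.51%) and Krt5 higher (2.58%). Levels were also divided by that of Epcam within each sample, as a description. Since Epcam itself was at a lower mean level in Dlx2OE, the division raises the values of other genes there. On this scale 23 of the other 37 genes were higher in all Dlx2OE samples than in any WT sample (62.2%, against 35.4% of all genes tested), 3 were lower (Krt8, Krt18 and Wfdc2; 8.11%, against 0.383% of all genes) and 11 overlapped. Trp63 over Epcam, for one, was 0.227, 0.143 and 0.193 in WT and 0.404, 0.434 and 0.426 in Dlx2OE.

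**Figure D5:**
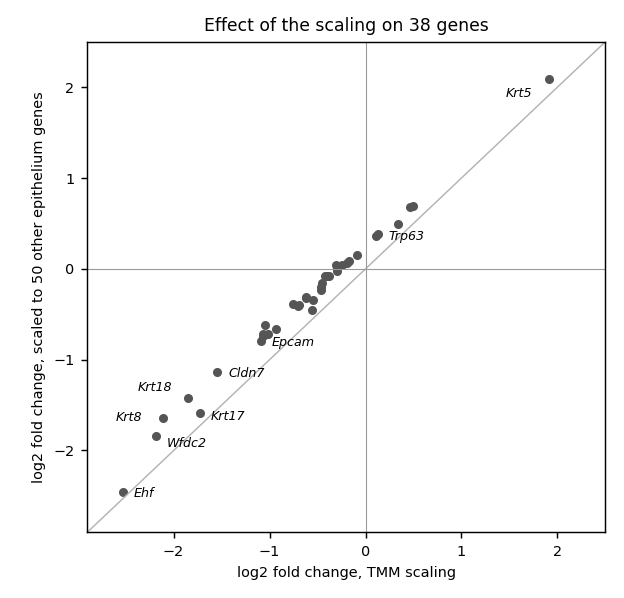
Log2 fold change of the 38 tested genes under TMM scaling (x axis) and after scaling each sample to 50 other epithelium genes (y axis), with a line of equality. All points lie above the line and keep nearly the same order, with Krt5 at 1.91 and 2.10 and Krt8 at -2.11 and -1.64.

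The 50 other epithelial genes, which cover junction, basement membrane, gap junction and patterning genes, were listed with earlier results of these data known. Their median log2 fold change was -0.34 (0.0028 over all genes), with 35 of 50 below 0. Of the 50, 3 were called higher (2.99% of all genes tested were) and 2 lower (3.46% of all genes were, a share near that of the list). Gjb6 (connexin 30) had 1.20, 3.55 and 1.96 CPM in WT and 38.7, 15.6 and 19.2 CPM in Dlx2OE (log2 fold change 3.45, SE 0.48, edgeR adjusted p = 0.012), and Gjb2 (connexin 26) had 2.07 (SE 0.46, edgeR adjusted p = 0.0402). Both are gap junction proteins of stratified epithelium, and their Dlx2OE samples all exceeded WT, sample 1 most. Bnc1 (basonuclin), a zinc finger protein of basal keratinocytes, rose by 0.98 (SE 0.20, edgeR adjusted p = 0.0333). Foxe1, a forkhead factor of oral and pharyngeal epithelium, had 32.4, 45.4 and 42.1 CPM in WT and 8.54, 8.98 and 10.6 CPM in Dlx2OE (log2 fold change -2.09, SE 0.17, edgeR adjusted p = 0.00314). Unlike most of the epithelial genes, it was equally low in the 3 Dlx2OE samples. Tmem30b, a flippase subunit, had -0.72 (SE 0.17, edgeR adjusted p = 0.0489). Cdh3 (P-cadherin) and Jup (plakoglobin), the highest of the list per kilobase in WT, had -0.10 (SE 0.31) and -0.05 (SE 0.24).

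A list of 8 mesenchymal genes held the repressors of epithelial genes Zeb1, Zeb2, Snai1, Snai2, Twist1 and Twist2 together with Cdh2 and Vim, and 3 of the 8 were called higher (2.99% of all genes tested were) and 0 lower (3.46% of all genes were). Twist1 had 201, 189 and 260 CPM in WT and 347, 361 and 313 CPM in Dlx2OE (log2 fold change 0.65, SE 0.14, edgeR adjusted p = 0.0402). Zeb2 had 106, 80.6 and 104 CPM in WT and 164, 147 and 156 CPM in Dlx2OE (0.69, SE 0.13, edgeR adjusted p = 0.0257), and Twist2, for which 46.5% of the exon bases overlap another gene model, had 1.69 (SE 0.26, edgeR adjusted p = 0.0152). For Twist1 and Zeb2 the groups did not overlap, and Dlx2OE sample 1 lay close to the other two Dlx2OE samples. Vim, an intermediate filament of mesenchyme and the highest of the list per kilobase in WT, had a log2 fold change of 0.15. The median log2 fold change of the 8 genes was 0.26, below that of each called gene. Their summed level, which includes Cdh2 and Vim, was 1303 to 1458 CPM in WT and 1615 to 1755 CPM in Dlx2OE. The part of this list in the epithelial values was not tested.

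Markers of other cells stood beside these results as follows, and their part in them was not tested. Their calls are to be read against the 2.99% of all genes that were called higher and the 3.46% called lower. The summed level of 12 crest mesenchyme genes was 5599 to 6182 CPM in WT and 5820 to 6034 CPM in Dlx2OE, with 1 called higher (Twist1, held by both lists) and 1 lower (Postn, -1.36). Endothelial genes had 371 to 540 CPM in WT and 263 to 416 CPM in Dlx2OE, with 1 of 11 called lower. Macrophage genes had 95.8 to 109 CPM in WT and 64.4 to 68.4 CPM in Dlx2OE, with 3 of 10 called lower, and erythroid genes had 3063 to 4235 CPM and 1931 to 2496 CPM, with 2 of 8 called lower. Neuronal genes had 136 to 392 CPM in WT and 271 to 1184 CPM in Dlx2OE. Their median log2 fold change was 1.87, with 0 of 10 called. Glial genes had 151 to 160 CPM and 96.0 to 329 CPM, with 0 of 6 called. Skeletal muscle genes had 191 to 365 CPM and 81.7 to 241 CPM, with 0 of 9 called. Dlx2OE sample 1 had the lowest sum of the 3 Dlx2OE samples for endothelial, macrophage, neuronal, glial and skeletal muscle genes. Its sums there were 263, 64.4, 271, 96.0 and 81.7 CPM. For crest mesenchyme genes its sum was the highest of the 3 (6034 CPM), and for erythroid genes it lay between the others (2362 CPM). Lens and retina genes were near the floor, 4 of 10 passing the filter, at 3.83 to 5.08 CPM in WT and 3.75 to 7.04 CPM in Dlx2OE.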

How the data were processed

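The authors sequenced paired-end poly(A) libraries of E12.5 maxillary prominences, 3 of WT and 3 of Dlx2OE, made with a kit that does not mark strand. Per the submitters' processing notes and the study's methods, reads were checked with FastQC, mapped to mm10 with STAR 2.7.3a and counted with htseq-count (HTSeq 0.12.4, union mode), and the raw counts per gene were deposited without normalization. The annotation release and strand setting are not given in the sources used here.

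The 5 summary lines of each file were left out of the tests. Symbols, positions and exon lengths were taken from GENCODE M21 (GRCm38), where 53706 of 53801 identifiers were found. Genes were kept by filterByExpr (minimum count 10), scaled by TMM and tested with edgeR 4.0.16 (quasi-likelihood, genotype as the only term, Benjamini-Hochberg adjustment over 17514 genes) in R 4.3.3. SE was taken as the log2 fold change over the root of the F statistic. With 3 samples per genotype, an exact permutation test of a single value cannot go below p = 0.1. Gene totals of 26155500 to 31308813 give a floor of 3 counts, or 0.0955 to 0.111 CPM, which covers counting error only. CPM per kb divides by the union exon length.

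Named genes were those of a fixed set (Epcam, Cdh1, Trp63, Krt5, Krt8, Krt14, Krt18, Grhl2), members with an adjusted p under 0.05, and members with non-overlapping groups and a log2 fold change beyond 0.58 in size. For the other lists, called genes and the 2 highest in WT per kb were eligible. The members and lists were chosen with earlier results of these data known. Alternatives were DESeq2 1.42.0, other scalings, filters, a replicate block, a length and GC correction, and leaving out each sample. No pair of libraries agreed within sampling noise (chi-square per gene 31.9 to 72.7). A promoter sequence and the result of a marker list are not reported here.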

Additional observations from a re-analysis of the deposited data

Results flagged for a closer look

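Read pairs that fell on no annotated gene lie outside the gene comparisons and were more frequent in each Dlx2OE library than in any WT library. They made up 5.03%, 5.43% and 5.25% of pairs in WT samples 1 to 3 and 5.75%, 7.81% and 14.7% of pairs in Dlx2OE samples 1 to 3. Dlx2OE sample 1, which held the highest levels of the surface epithelium genes among the Dlx2OE samples, had the lowest of the 3 shares.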

How the results depend on the processing

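The count of surface epithelium genes called lower was 4 in the reported fit and 1 scaled to the 38 tested genes themselves, 8 with no filter on low counts, and 1 to 21 when leaving out each sample, with the same counts under the rule that adds a log2 fold change beyond 1 except for a leave-one-out range of 1 to 18. It was 3 to 5 under the remaining alternatives. The count called higher was 0, and 1 (Krt5) scaled to the 38 genes, scaled to the 50 other epithelial genes, or with no filter. The median log2 fold change was -0.028 scaled to the 38 genes, a scaling that moves the median of all genes to 0.71, and -1.15 to -0.25 over the leave-one-out fits. Of the 50 other epithelial genes, 2 were called lower in the reported fit, 8 with DESeq2, 5 with no filter, 0 scaled to the 38 genes, 1 with RLE scaling, library size alone, scaling to the 50 genes, the length and GC correction, and the replicate block with and without that correction, and 1 to 17 leaving out each sample. The count called higher there was 5 with DESeq2 and 1 to 3 leaving out each sample. Over all genes 1130 were called, against 2459 with DESeq2, 2044 with no filter, 579 and 593 scaled to the 38 and to the 50 genes, 550 with the replicate block and the length and GC correction, and 79 to 2091 leaving out each sample. The cause of these shifts was not tested.

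The replicate numbers did not pair the samples (correlations of same-numbered deviations -0.07, -0.21 and 0.07). With the replicate block, 961 genes and 3 members (Krt8, Krt18 and Wfdc2) were called, and Cldn7 was not (log2 fold change -1.52, edgeR adjusted p = 0.0704). Krt8, Krt18, Wfdc2 and Cldn7 kept a log2 fold change below 0 under all the alternatives run. The dependence of levels on 1 library, Dlx2OE sample 1, and 3 samples per genotype limit what these data can separate.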
